A study of Homo sapiens with 5 samples.

Results

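MYF5 is a muscle transcription factor, and the sites described here are those where the base of its highest signal in RH18 lay in a region listed for acetylated histone H3 lysine 27 (H3K27ac) in RH18 but in none listed in RD. The rule looks at that base alone: 1255 of the 2414 sites (52.0%, 49.97 to 53.999%) sat in an RH18 region that overlapped an RD region elsewhere along its length. RH18 and RD are established human lines of rhabdomyosarcoma, a cancer whose cells resemble immature skeletal muscle, of the kind without a gene fusion. Chromatin immunoprecipitation with sequencing (ChIP-seq) was made on cells fixed in 1% formaldehyde for 12 minutes, and 3 peak lists were used: MYF5 in RH18, H3K27ac in RH18 and H3K27ac in RD. A MYF5 peak was taken as a member where its summit, the base of highest signal, lay inside a listed RH18 H3K27ac region and inside no listed RD H3K27ac region. Of the 11136 MYF5 peaks, 2414 met this rule (21.7%, 95% interval 20.9 to 22.5%). The others were 3736 summits inside regions of both lines, 711 inside RD regions alone and 4275 inside regions of neither line. Members were thus chosen by the positions of the MYF5 summits and of both sets of H3K27ac regions, and these counts are a description.

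MYF5 belongs to the basic helix-loop-helix family, pairs with E proteins such as TCF3 and TCF12, and binds short DNA motifs called E-boxes. It acts early in the muscle lineage, together with MYOD1, to commit progenitor cells. H3K27ac is laid down by the acetyltransferases p300 and CBP on nucleosomes of active enhancers and promoters. A bound factor commonly occupies a stretch with few nucleosomes, so the acetylated nucleosomes lie on its flanks. Enhancers commonly differ more between cell types than promoters do.

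Each group was 1 library. There is no replicate error, no test was made, and no value below is shown to be particular to the members. Intervals of shares are exact Clopper-Pearson 95% intervals, and those of medians are exact 95% order-statistic intervals. Both cover counting error over peaks, which share a library and are not replicates. Fold is the authors' deposited enrichment over local background at a summit, and a tag is 1 sequenced read counted there, worked out from that fold and its p-value. Over whole lists the median summit rested on 42 tags for MYF5, 57 for RH18 H3K27ac and 85 for RD H3K27ac. MYF5 binding in RD, a control immunoprecipitation and gene expression were not analysed here. Positions are of build hg19. The gene annotation at hand is of another build, so neither gene names nor DNA sequences are given for these sites.

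The members ranged from summits beside an RD region to summits far from any. In 1258 of them (52.1%, 50.1 to 54.1%) an RD region lay within 500 bp of the MYF5 summit, where 38.3% of all MYF5 summits outside RD regions had one so close. This share depends on how a region is drawn: it was 20.9% where any overlap of 1 bp with a MYF5 peak counted, 31.0% with regions of each list joined within 1000 bp and 31.7% with RD regions alone so joined. A further 259 (10.7%, 9.52 to 12.0%) lay more than 500 and up to 5000 bp away and 525 (21.7%, 20.1 to 23.4%) more than 5000 and up to 50000 bp away. The remaining 372 (15.4%, 14.0 to 16.9%) were more than 50000 bp from any RD region. So 897 members (37.2%, 35.2 to 39.1%) were over 5000 bp from RD acetylation, against 50.1% of all MYF5 summits outside RD regions. Within 100 bp of an RD region lay 842 members (34.9%, 33.0 to 36.8%), and the median distance was 352 bp. The number rose to 1067 within 200 bp but then only to 1325 within 1000 bp.

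**Figure D1:**
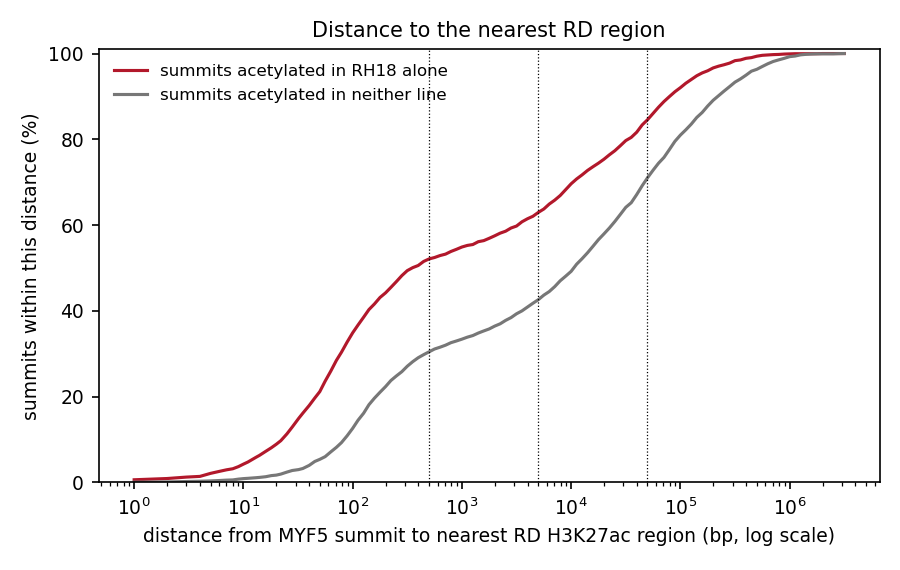
Share of MYF5 summits (y axis, %) within a given distance of the nearest RD H3K27ac region (x axis, bp, log scale), for the 2414 summits acetylated in RH18 alone and the 4275 acetylated in neither line, with dotted lines at 500, 5000 and 50000 bp. At 500 bp the curves stand at 52.1% for RH18 alone and 30.5% for neither line.

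For the members beside RD acetylation, the RH18 region around the MYF5 summit usually reached the RD region. Of the 1258, 1192 (94.8%, 93.4 to 95.9%) sat in an RH18 region that overlapped an RD region elsewhere along its length, against 2 of the 897 members over 5000 bp away (0.223%, 0.0270 to 0.803%). The low share of the far members is largely set by their distance. Their regions had a median width of 883 bp and would have to span over 5000 bp to overlap an RD region. In 680 of the 1258 (54.1%, 51.3 to 56.8%) RD regions ended within 500 bp on both sides of the summit. The gap between these flanking RD regions had a median length of 212 bp (199 to 223 bp, quartiles 150 and 312 bp). In 493 of the 680 (72.5%, 69.0 to 75.8%) 1 RH18 region ran across the whole gap and touched both RD regions. The other 578 had an RD region on 1 side. Of the 1302 summits of neither line that lay within 500 bp of an RD region, 503 had one on both sides (38.6%, 36.0 to 41.3%), with a median gap of 304 bp (284 to 323 bp). RD regions on both sides were thus seen at members and at summits outside both lists, at the members in a larger share and with shorter gaps.

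Some summits lay on the edge of an RD region, and 3 on each side are given here by highest MYF5 fold. The member closest to RD acetylation with the highest MYF5 fold had its summit on chromosome 17 at base 37025629, 1 bp outside an RD region, with a MYF5 fold of 32.6 in an RH18 region of fold 56.0. Others 1 bp outside were on chromosome 2 at base 233948132 (MYF5 fold 23.7) and on chromosome 12 at base 49412710 (MYF5 fold 14.8). Just inside RD regions, and so not members, were summits on chromosome 3 at base 193534962 (MYF5 fold 22.2), chromosome 13 at base 111774531 (13.8) and chromosome 11 at base 119231881 (13.5), each on the outermost base of an RD region. Within 50 bp of an RD edge lay 511 of the 2414 members (21.2%) on the outer side and 815 of the 3736 summits of both lines on the inner side. On the outer side it was 5.38% of the 4275 summits of neither line.

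The near members were chosen to have no RD region at the summit and one within 500 bp, so a trough of RD coverage at the summit is set by that choice and only its levels are described. For the 1258, an RD region covered 63.8% of sites 250 bp to the right of the summit and 60.2% at 250 bp to the left, but 20.4% at 50 bp to the right and 20.8% at 50 bp to the left. Over the 1302 near summits of neither line, chosen in the same way with respect to RD, the RD levels were 52.6% at 250 bp and 9.52% at 50 bp to the right. RH18 regions covered 78.8% and 78.9% of the 1258 members at 250 bp right and left. At the 3736 summits of both lines, RD coverage at 250 bp was 66.5% to the right and 68.4% to the left. Both values were above the 63.8% and 60.2% of the near members. Summits of both lines were chosen to lie inside an RD region, so these levels do not compare like with like. The 897 members over 5000 bp away had RH18 coverage of 52.5% at 500 bp to the right, with no RD region in the window.

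**Figure D2:**
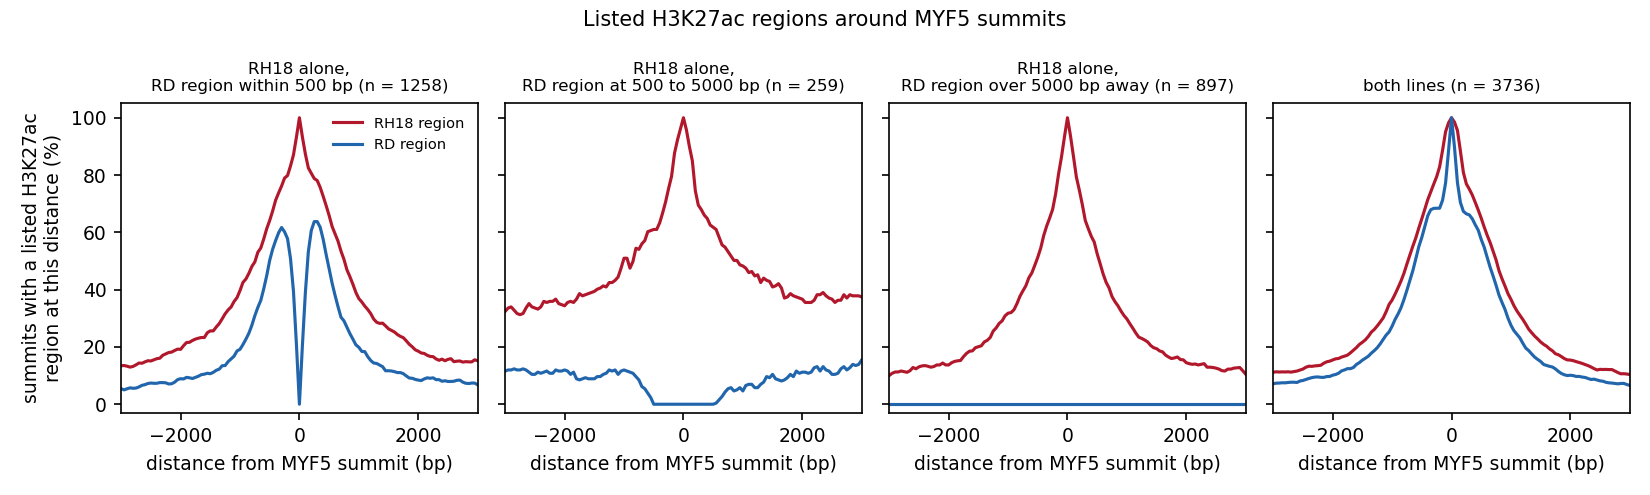
Share of MYF5 summits (y axis, %) with a listed RH18 (red) or RD (blue) H3K27ac region at each distance from the summit (x axis, bp, in steps of 50 bp), for RH18-alone summits with an RD region within 500 bp (n = 1258), at 500 to 5000 bp (n = 259) and over 5000 bp away (n = 897), and for summits of both lines (n = 3736). The values at 0, the rise of RD on both flanks in the first panel and the empty RD stretches within 500 and 5000 bp are set by how the summits were chosen; the RD curve of the first panel stands at 63.8% at 250 bp.

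Median MYF5 signal was slightly higher over the members than over the summits acetylated in both lines. Median MYF5 fold was 10.6 (10.4 to 10.9) over the members, against 9.997 (9.90 to 10.2) over summits of both lines, 12.5 (11.9 to 13.1) over RD alone, 12.2 (12.2 to 12.5) over neither line and 11.2 over all MYF5 peaks. Median tags were 43 (42 to 44) over the members, against 41 (40 to 41) for both lines, 42 (40 to 44) for RD alone and 44 (43 to 45) for neither line. The median −log10 p-value was 23.9 (22.96 to 24.2) over members and 22.1 (21.4 to 22.5) over both lines. Peak width was alike, with medians of 269 bp over members and 273 bp over both lines.

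Among the members themselves, those within 500 bp of RD acetylation had the highest median MYF5 fold, with an interval that overlaps that of members beyond 50000 bp. Their median was 11.3 (10.99 to 11.7) on 46 tags (45 to 48). It was 9.56 (8.93 to 10.1) on 37 tags at 500 to 5000 bp, 9.85 (9.50 to 10.2) on 39 tags at 5000 to 50000 bp and 10.8 (10.2 to 11.3) on 42 tags beyond 50000 bp. The 680 with RD regions on both sides reached a median fold of 11.9 (11.3 to 12.5) on 49 tags, against 10.6 (10.2 to 11.2) on 44 tags for the 578 with an RD region on 1 side. Of the near members, 303 (24.1%, 21.7 to 26.5%) stood in the highest quintile of the MYF5 list by fold, against 116 of the 897 far members (12.9%, 10.8 to 15.3%). The share in that quintile was 18.56% over all members and 19.98% over all MYF5 peaks. It was 12.1% over summits of both lines, 28.8% over RD alone and 26.2% over neither line. A higher fold beside RD regions was not seen in the members alone. The 1302 summits of neither line within 500 bp of an RD region had a median MYF5 fold of 14.12 on 51 tags. Over all 4275 summits of neither line it was 12.2 on 44 tags.

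The RH18 regions that held members were weaker in H3K27ac than those holding summits of both lines. H3K27ac was part of the rule, so this is given as a description. The region's median fold was 28.1 (26.7 to 29.4) for members on 112 tags for members, and 43.8 (42.9 to 44.9) on 187 tags for both lines. By distance to RD acetylation the members' regions ran from a median fold of 32.4 within 500 bp, through 26.1 and 22.8, to 20.9 beyond 50000 bp. Their median width was 1187 bp within 500 bp and 743 bp beyond 50000 bp, against 1202 bp for both lines. So the members far from RD regions combined narrower and less enriched acetylation with a median MYF5 fold of 10.2 over the 897. That fold was below the 11.2 of all MYF5 peaks and close to the 9.997 of both lines.

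**Figure D3:**
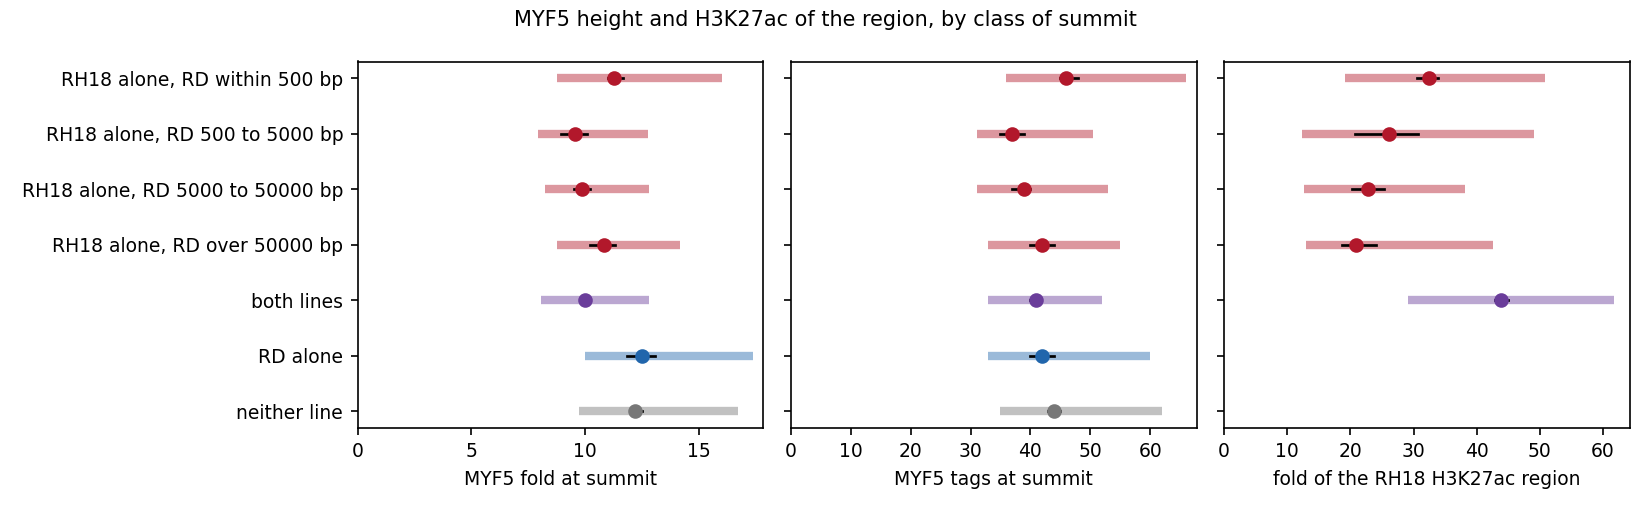
MYF5 fold, recovered MYF5 tags and fold of the RH18 H3K27ac region (x axes) for RH18-alone summits by distance to the nearest RD region, then for both lines, RD alone and neither line; points are medians, thick bars quartiles and black lines 95% intervals of the median. MYF5 medians lie between 9.56 and 12.5 in fold, while the region's median fold is 20.9 to 32.4 for RH18 alone and 43.8 for both lines; RD-alone and neither-line summits lie in no RH18 region.

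The nearest RD region of a near member was also of lower signal than an RD region holding a summit of both lines. RD regions were part of the rule, so this is given as a description. The median was 95.5 tags (92 to 100) and 397 bp of width beside near members, against 161 tags (159 to 164) and 721 bp around summits of both lines. Beside the near summits of neither line, which also had to lie outside RD regions, it was lower, at 75 tags (71 to 77) and 344.5 bp. Where RD regions flanked the summit on both sides the nearer one had 110 tags (104 to 114), and where it lay on 1 side 77.5 tags (73 to 83). Folds of the RD list are not set beside RH18 folds, because a tag counted for 0.273 pileup units in RD and 0.832 in RH18.

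Members also sat further from the crest of RH18 acetylation. Both sets of H3K27ac regions were part of the rule, so this is given as a description. The median distance from MYF5 summit to H3K27ac summit of the same region was 241 bp (232 to 253 bp), against 159 bp (151 to 167 bp) for both lines. Within 150 bp of the H3K27ac summit lay 703 members (29.1%, 27.3 to 31.0%), against 1803 summits of both lines (48.3%, 46.6 to 49.9%). The share was 21.0% for the near members and 38.9% for those over 5000 bp away. Within 100 bp of an edge of the RH18 region lay 613 members (25.4%, 23.7 to 27.2%), against 351 summits of both lines (9.40%, 8.48 to 10.4%).

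Among the 6150 MYF5 summits inside RH18 regions, the share that were RH18 alone was 39.3% (38.0 to 40.5%). In quintiles of these summits by the fold of the region it was 65.9% in the lowest (63.1 to 68.5%), 44.6%, 32.9%, 27.1% and 25.8% in the highest (23.3 to 28.3%). Members over 5000 bp from RD made up 32.0% of the lowest quintile and 7.56% of the highest. H3K27ac was part of the rule, so the ranking by region fold is a description. By MYF5 fold the order was the reverse and the range smaller, with 35.2% (32.5 to 37.9%) in the lowest quintile and 47.8% (45.0 to 50.6%) in the highest. Far members showed no such range, at 13.4% (11.6 to 15.4%) in the lowest quintile by MYF5 fold and 13.6% (11.7 to 15.6%) in the highest. By tags the highest quintile again held the most members (48.1%, 45.3 to 51.0%), against 38.3% in the lowest. Far members ran the other way by tags, at 18.1% (16.0 to 20.4%) in the lowest quintile and 13.2% (11.3 to 15.2%) in the highest.

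**Figure D4:**
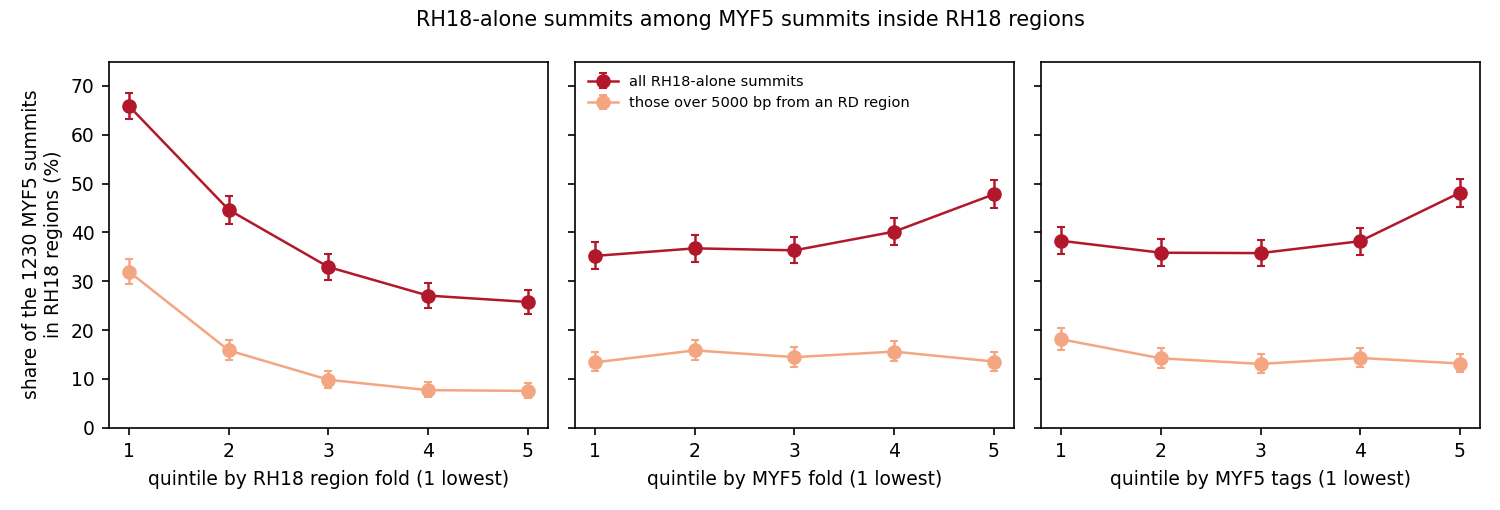
Share of RH18-alone summits (y axis, %, with exact 95% intervals) in each quintile of the MYF5 summits inside RH18 regions, 1230 summits a quintile, ranked by fold of the region, by MYF5 fold and by MYF5 tags (x axes). The share of all RH18-alone summits is 65.9% in the lowest quintile by region fold and 47.8% in the highest quintile by MYF5 fold, while those over 5000 bp from an RD region stay between 13.4 and 15.9% across MYF5 fold. H3K27ac was part of the rule, so the panel by region fold is a description.

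The 10 members of highest MYF5 fold rested on 134 to 237 tags, and 9 of them lay within 500 bp of an RD region. The exception was the highest, on chromosome 10 (22518218 to 22518634, MYF5 fold 68.5, 210 tags), in a 613 bp RH18 region of fold 42.3 and 86890 bp from the nearest RD region. The next, on chromosome 2 (27273511 to 27274441, fold 59.9), was 22 bp from an RD region of 148 tags. A peak on chromosome 21 (44969480 to 44969945, fold 53.5) was 86 bp from one, and a peak on chromosome 6 (26537578 to 26538543, fold 50.5) 43 bp from one. On chromosome 9 (13810457 to 13811075) a MYF5 peak of fold 48.8 sat in an RH18 region of fold 5.66 and only 286 bp, and the RD region 197 bp away rested on 31 tags.

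The RH18 regions of highest fold that held a member were led by 1 on chromosome 17 (48286574 to 48288770, fold 132, 397 tags), whose MYF5 summit of fold 16.8 was 12 bp from an RD region of 194 tags. Of the 10 such regions, 5 had their named member within 500 bp of an RD region and 2 over 5000 bp. The regions of those 2 overlapped no RD region. On chromosome 6 (169471407 to 169473700, region fold 121) there were 2 members of MYF5 fold 27.9 and 9.29. On chromosome 1 (232246178 to 232246832, region fold 119) there was 1 member of MYF5 fold 11.9. Among the 10, the member of highest MYF5 fold was on chromosome 1 (40111893 to 40112660, MYF5 fold 42.6, 193 tags), in a region of fold 117. On chromosome 5 (1328997 to 1332785, region fold 119) the region overlapped an RD region of 63 tags, but its MYF5 summit of fold 10.4 was 1486 bp away.

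The member farthest from any RD region was on chromosome 21 (24366104 to 24366420, MYF5 fold 10.4, 41 tags), 1813739 bp from the nearest and 2335696 bp from the next MYF5 summit. Its RH18 region had a fold of 29.5, with the H3K27ac summit 29 bp from that of MYF5. A member on chromosome 13 (94126071 to 94126397, MYF5 fold 19.96, region fold 33.4) was 1074724 bp from an RD region. A member on chromosome 11 (132710176 to 132710347, MYF5 fold 9.10) was 969330 bp away, in a region of fold 17.7. The strongest MYF5 peak among the 10 farthest was on chromosome 20 (15740752 to 15741196, MYF5 fold 29.0, 95 tags), in a region of fold 14.2.

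The members filled 2295 RH18 regions. Of these regions 2185 held 1 member, 103 held 2, 6 held 3 and 1 held 5. No RD region overlapped 1100 of them (47.9%, 45.9 to 49.997%), where 54.9% of all 46408 RH18 regions overlapped none. Another 607 overlapped 1 RD region and 588 overlapped at least 2. The region with 5 members was an 18198 bp stretch of chromosome 22 (19858453 to 19876650, fold 99.6). It overlapped 1 RD region, and its members had MYF5 folds of 16.0, 14.6, 14.6, 13.9 and 10.7 on 42 to 62 tags, lying 164 to 6943 bp from RD acetylation. A 9950 bp region of chromosome 7 (73419818 to 73429767, fold 76.6) overlapped no RD region and held members of MYF5 fold 29.8, 8.13 and 7.52, all at least 72414 bp from one.

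RH18 regions within 10000 bp of each other were also joined into domains, to find whole stretches without RD acetylation. Of 20111 domains 1925 held a member, and 581 of these touched no RD region. These 581 domains held 678 members, and 57 of the domains held 2 or more. The share of all 20111 domains that touched no RD region is not given here. The counts are thus not shown to be particular to the members. The highest of the 581 by summed fold times width, rank 52 among all domains, spanned 86665 bp of chromosome 2 (218745440 to 218832104, mean fold 32.0). It held 3 members of MYF5 fold 11.5, 12.2 and 12.2. A 43369 bp domain of chromosome 22 (44737464 to 44780832, rank 69, mean fold 45.0) held 3 members with MYF5 folds from 10.5 to 16.1. On chromosome 5 a short domain of 9037 bp (956252 to 965288, mean fold 58.3) held 4 members with folds from 10.2 to 24.7. A 67159 bp domain of chromosome 19 (43376300 to 43443458) held 3 members of fold 8.65 to 11.2, each at least 407530 bp from an RD region.

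The domain with most members was of another kind. It spanned 51361 bp of chromosome 12 (1904427 to 1955787), touched no RD region and held 20 members in 34 RH18 regions, with a mean H3K27ac fold of 7.86. The members' MYF5 folds were low, with a lowest of 3.49, a median of 4.55 and a highest of 8.76, yet they rested on a median of 68.5 tags. The local background recovered under them was 8.68 times the lowest of the MYF5 list at the median. Another domain of chromosome 12 (48252710 to 48303997) held 10 members with a median fold of 5.53, 112 tags and background at 10.6 times the lowest. By megabase, members were most numerous on chromosome 12 from 48000001 (38 members of 73 MYF5 peaks) and from 1000001 (21 of 31). MYF5 background under these members was 8.73 and 8.63 times the lowest, and that of their RH18 H3K27ac regions 9.14 and 8.38 times. RD H3K27ac background was 2.26 and 2.72 times the lowest under the RD regions there. Each ratio is over the lowest of its own list. Whole-list medians were 1.27 for MYF5, 1.52 for RH18 H3K27ac and 2.34 for RD H3K27ac. Copy number was not analysed here, and the part that background plays in these members was not tested.

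Background of at least 4 times the lowest lay under 142 members (5.88%, 4.98 to 6.90%), against 4.91% of all MYF5 peaks and 5.11% of summits of both lines. Chromosome 12 held 73 of the 142, and 71.2% of those 73 were over 5000 bp from an RD region, against 17.4% of the 69 on other chromosomes. Of all members, whatever their background, chromosome 12 held 6.05%, close to its 5.89% of all MYF5 peaks. Without the 142, the median MYF5 fold of the members was 10.9 and 52.6% lay within 500 bp of an RD region.

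Members occurred on all 23 chromosomes with MYF5 peaks. As a share of the MYF5 summits inside RH18 regions they ran from 30.5% on chromosome 6 (25.5 to 36.0%) to 52.3% on chromosome 13 (42.6 to 61.8%) and 52.0% on chromosome 22 (44.4 to 59.5%). Members over 5000 bp from RD acetylation ran from 9.003% on chromosome 6 (6.07 to 12.7%) to 22.9% on chromosome 22 (17.0 to 29.8%) and 22.4% on chromosome 12 (18.1 to 27.2%). The intervals of most chromosomes overlap, and gain or loss of chromosomes was not analysed here.

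**Figure D5:**
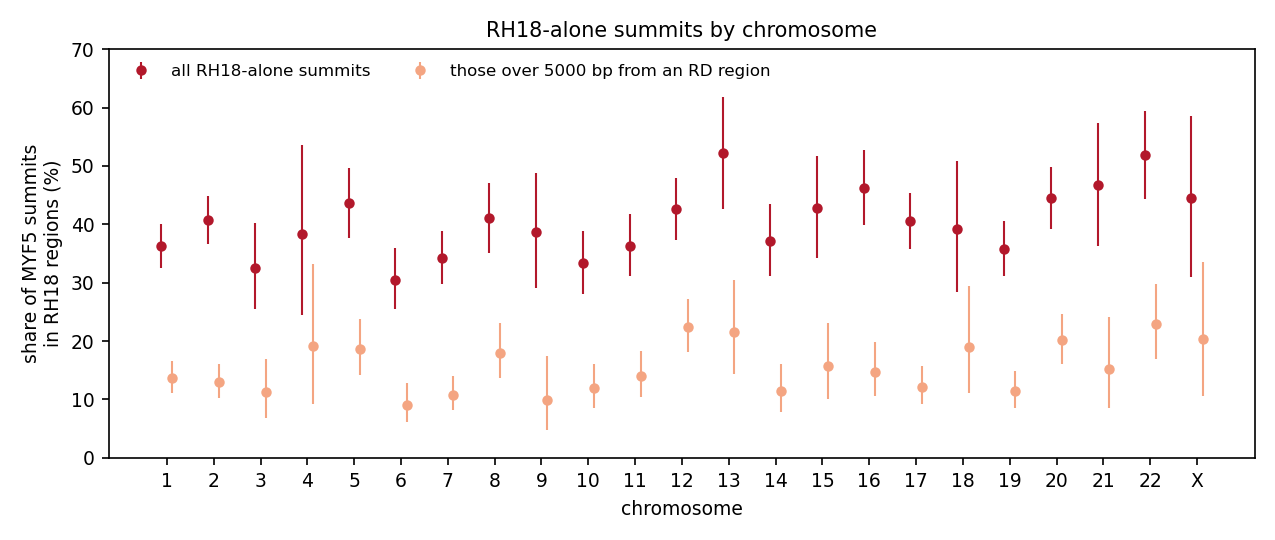
Share of the MYF5 summits inside RH18 regions that are acetylated in RH18 alone (y axis, %, with exact 95% intervals) on each chromosome (x axis), for all such summits and for those over 5000 bp from an RD region. All RH18-alone summits lie between 30.5% on chromosome 6 and 52.3% on chromosome 13, and those far from RD between 9.003% on chromosome 6 and 22.9% on chromosome 22.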

How the data were processed

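The submitters' processing notes list BWA 0.7.10, MACS2 2.1.0 and hg19; roles, controls and thresholds are not given in the sources used here. Each deposited list is of 1 library and gives, per the deposited files, a fold (ratio over local background), a −log10 p-value and a −log10 q-value per peak, all the authors' values; the authors' score column repeats that p-value on another scale and was left aside. The lowest −log10 p-value was 9.09 for MYF5, 7.09 for RH18 H3K27ac and 5.00 for RD H3K27ac. Library totals are not given in the sources used here.

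Pileup and background were solved from fold, (pileup + 1)/(background + 1), and the Poisson p-value. Pileups were whole multiples of 1 tag, within 0.1 tag, for 100% of peaks of each list, choosing the nearest whole tag where several solutions existed (44.3% of MYF5, 19.3% of RH18 H3K27ac and 59.9% of RD H3K27ac peaks). Distances run from the summit to the nearest base of a region. Tag recovery and class assignment were tested on simulated data. Peaks named are the 10 highest in MYF5 fold, in region fold, in distance from RD regions and in members per region, with those at the rule's edge; domains and megabases were picked with their values known. Members, lists and alternatives were chosen with earlier results of these data known. Scripts ran under Python 3.11.15 with scipy 1.17.1, pandas 2.3.3, numpy 2.4.6 and, for figures, matplotlib 3.10.9.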

Additional observations from a re-analysis of the deposited data

How the results depend on the processing

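Of 33 alternatives 15 stayed within the interval of the reported value and 18 moved. The members' share of MYF5 summits was 17.1% with any overlap of 1 bp, 23.2% with both H3K27ac lists at a −log10 q of at least 10, 18.3% with regions joined within 1000 bp and 10.4% where the whole RH18 region had to overlap no RD region. It was 10.4% without RD regions within 500 bp and 8.055% within 5000 bp. These distance settings and the whole-region setting keep only part of the members over the same total. Their share therefore had to fall, and their moves say nothing on robustness. The share of members within 500 bp of RD was 20.9% with any overlap, 39.7% at that q, 31.0% with joining and 60.1% for the 5000 MYF5 peaks of largest −log10 p. Median MYF5 fold was 9.996 without members within 500 bp of RD, and the region's fold 22.7. Chosen after seeing the data, joining RD regions alone gave 15.2 and 31.7%, the 20000 regions of most tags in each list 18.7 and 35.5%, and members over 5000 bp from RD medians of 10.2 for MYF5 and 22.2 for the region. That q left 44460 of 46408 RH18 but 29466 of 43159 RD regions, so the lists were cut unequally. Alternatives on E-boxes and gene starts were not run, and height by −log10 p gives no fold. No paired analysis was possible because each group is 1 library. The lists end at different p-values and depth is unknown, which limits what absence from the RD list shows. For the other changes the cause was not tested.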

Other observations

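The nearest other MYF5 summit was itself RH18 alone for 858 of the 2414 members (35.5%, 33.6 to 37.5%), and for 40.1% of the members over 5000 bp from RD, against 19.8% of summits of both lines, 18.0% of those of neither line and 21.9% of all MYF5 summits. For 31.8% of the members it was a summit of both lines. Neighbours can lie in the same H3K27ac region, where they share its class in part by construction. Another MYF5 summit lay within 1000 bp of 14.87% of the members, close to the 15.02% of all MYF5 peaks. It was 22.3% for summits of both lines, 14.77% for RD alone and 8.82% for neither line. Of the 2414 members, 613 lay in an RH18 domain that also held a summit of both lines. The matching share of other MYF5 summits is not given here. The 259 members at 500 to 5000 bp from RD had the closest neighbours, at a median of 2472 bp, against 14344 bp for those within 500 bp.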
